A study of Homo sapiens with 2 samples.

Results

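The regions described here are the called ChIP-seq intervals whose summit lay in 16 windows of hg38 around the centromeres of chromosomes 1 to 8, 10 to 12 and 16 to 20. They numbered 1688 of the 262282 intervals of both lists, with 999 of 160393 in the control library and 689 of 101889 in the overexpression library. The windows were drawn by position alone, so no measured value chose them. Chromatin was precipitated with an antibody against TCF19, a PHD finger protein of the nucleus, from the endometrial cancer cell line Ishikawa, which is human and established. The control cells carried a control lentivirus and the other cells a lentivirus that overexpressed TCF19, and both populations were selected with puromycin. Each group had 1 library, so no difference between the groups could be tested and every value is a value of those libraries. The lists hold no measure of the TCF19 level, so the labels were not checked on it. Intervals in brackets are 95% intervals of the counting error only: Wilson for shares, exact Poisson for read counts, and order statistics for medians.

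Human centromeres are built on alpha satellite, a short repeat in long tandem arrays, and the kinetochore assembles on part of these arrays. CENP-B binds a short motif, the CENP-B box, within many of the repeat units. Around the arrays lie other satellites, such as those made of CATTC repeats, and then duplicated segments and unique sequence with genes, and the satellite arrays are known for compact, gene-poor chromatin. In hg38 many arrays are modelled sequence that stands for copies not resolved one by one, so a read assigned there may come from another copy.

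The windows were 3.1 to 6.2 Mb long and 70.5 Mb in all, or 3.05% of the called extent of their chromosomes. The label of satellite could not be checked on sequence, since no genome was used here. As a substitute that uses only gene positions, the longest stretch in each window that no RefSeq gene touched was marked. These gene-free stretches made up 50.0 Mb of the 70.5 Mb. They were chosen after the data had been seen, and they can hold sequence other than satellite.

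Sequence could be shown only at gene starts at the margins of the windows. The promoters below, 300 bases each from RefSeq (GRCh38.p14), are those in which both libraries had their summit, with the bases from one summit to the other in capitals, and 1 promoter with the letters of a CENP-B box in capitals. The microRNAs lay inside intervals of both libraries and have their seed in capitals. MRPS5 encodes a protein of the mitochondrial ribosome, EPHA3 a receptor tyrosine kinase for ephrins, and PARP8 an ADP-ribosyltransferase, while GREB1L-DT and LOC105371204 are long noncoding RNA genes.
MRPS5 promoter (chr2:95121759-95122058, minus strand): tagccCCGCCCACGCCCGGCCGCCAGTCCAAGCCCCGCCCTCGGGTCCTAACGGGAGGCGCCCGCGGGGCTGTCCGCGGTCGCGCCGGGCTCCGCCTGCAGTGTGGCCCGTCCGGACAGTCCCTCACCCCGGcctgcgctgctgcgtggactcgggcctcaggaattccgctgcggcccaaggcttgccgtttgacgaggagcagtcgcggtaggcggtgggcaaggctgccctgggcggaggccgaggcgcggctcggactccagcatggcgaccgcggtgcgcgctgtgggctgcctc
EPHA3 promoter (chr3:89107371-89107670, plus strand): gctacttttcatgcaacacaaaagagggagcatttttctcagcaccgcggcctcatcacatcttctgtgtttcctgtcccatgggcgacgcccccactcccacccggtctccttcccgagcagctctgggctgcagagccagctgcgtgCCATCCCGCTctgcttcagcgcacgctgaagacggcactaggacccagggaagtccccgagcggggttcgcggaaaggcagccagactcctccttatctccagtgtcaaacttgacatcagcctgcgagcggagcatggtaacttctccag
PARP8 promoter (chr5:50666387-50666686, plus strand): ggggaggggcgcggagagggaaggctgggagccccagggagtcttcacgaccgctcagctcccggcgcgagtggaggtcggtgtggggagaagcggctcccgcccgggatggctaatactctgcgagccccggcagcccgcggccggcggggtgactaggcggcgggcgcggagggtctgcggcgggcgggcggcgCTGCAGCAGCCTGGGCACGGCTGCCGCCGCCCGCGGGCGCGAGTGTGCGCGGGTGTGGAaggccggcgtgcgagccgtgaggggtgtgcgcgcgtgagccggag
GREB1L-DT promoter (chr18:21242679-21242978, minus strand): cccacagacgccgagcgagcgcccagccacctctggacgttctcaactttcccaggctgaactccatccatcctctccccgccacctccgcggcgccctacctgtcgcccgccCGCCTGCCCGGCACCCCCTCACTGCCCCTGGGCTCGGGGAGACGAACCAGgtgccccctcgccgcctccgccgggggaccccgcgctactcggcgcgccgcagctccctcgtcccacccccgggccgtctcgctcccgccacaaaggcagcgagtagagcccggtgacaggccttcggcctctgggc
LOC105371204 promoter (chr16:35507024-35507323, plus strand): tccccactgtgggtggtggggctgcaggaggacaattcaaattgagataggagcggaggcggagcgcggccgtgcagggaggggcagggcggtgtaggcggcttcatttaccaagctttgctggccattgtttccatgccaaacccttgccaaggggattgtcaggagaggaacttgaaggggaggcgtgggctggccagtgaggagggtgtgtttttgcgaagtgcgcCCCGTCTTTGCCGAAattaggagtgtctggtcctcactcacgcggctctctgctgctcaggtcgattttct
hsa-miR-4522: uGACUCUGccuguaggccggu
hsa-miR-663a: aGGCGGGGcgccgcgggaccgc

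At EPHA3 the control summit held 11 reads (5.49–19.7) and the overexpression summit 14 reads (7.65–23.5), 9 bp apart. At MRPS5 the summits held 13 and 14 reads, at PARP8 16 and 16 reads, and at GREB1L-DT 15 and 18 reads. These gene-start summits were close in height in both libraries and were low beside the highest summits of the windows described below. At LOC105371204 only the overexpression list had an interval over the promoter, with 16 reads (9.15–26.0) and a 5.97-fold enrichment. Its summit, at 35507015, lay before the first printed base and so away from the CENP-B box letters. Over hsa-miR-4522 the interval summits held 14 and 17 reads, in control and overexpression in that order. Next to hsa-miR-663a the control summit at 26208380 held 19 reads and the overexpression summit 62 bp away also 19 reads. The overexpression summit nearest this microRNA was another, at 26208171, with 16 reads. The microRNAs lay at chr17:27293922-27293942 and chr20:26208243-26208264, both on the minus strand, and their seeds differed.

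Called intervals were sparse in the pericentromeric windows of both libraries. The control list had 14.2 intervals per Mb in the windows and 55.9 per Mb on the rest of the same chromosomes, 3.94 times fewer. The overexpression list had 9.77 per Mb in the windows and 35.6 per Mb on the rest, 3.64 times fewer. The windows were poorer than the rest of their chromosome in 16 of 16 cases in either library. Flanks of the same length on each side of the windows had 55.2 and 35.1 intervals per Mb, close to the rest.

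The deficit sat in the gene-free stretches. They held 3.26 control and 3.24 overexpression intervals per Mb, 17.1 and 11.0 times fewer than the rest of the same chromosomes. The remainder of the windows, where the genes lie, held 40.8 and 25.7 intervals per Mb, 1.37 and 1.38 times fewer than the rest. Stretches over 1 Mb with no summit in either library occurred in 12 of 16 windows. The longest measured 5.51 Mb on chromosome 18, 3.22 Mb on chromosome 5 and 3.04 Mb on chromosome 1. The depth over such stretches is not recorded in the lists, so unplaceable reads and low occupancy cannot be told apart.

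The windows differed widely among themselves. The control list had its lowest density on chromosome 7, with 1.75 intervals per Mb, and its highest on chromosome 4, with 31.4 per Mb. The overexpression list had its lowest on chromosome 11, with 1.25 per Mb, and its highest also on chromosome 4, with 24.7 per Mb. Chromosomes 4 and 2, which led both lists, held genes within the window, but so did the sparse chromosome 11, with 13 olfactory receptor genes. Summits in the windows made up 0.655% (0.618–0.695) of control and 0.699% (0.652–0.750) of overexpression summits. Shortening each window by 0.5 Mb at both ends lowered these shares to 0.339% and 0.389%, since the margins hold many of the summits. Leaving out the window on chromosome 2 gave 0.572% and 0.607%.

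**Figure D1:**
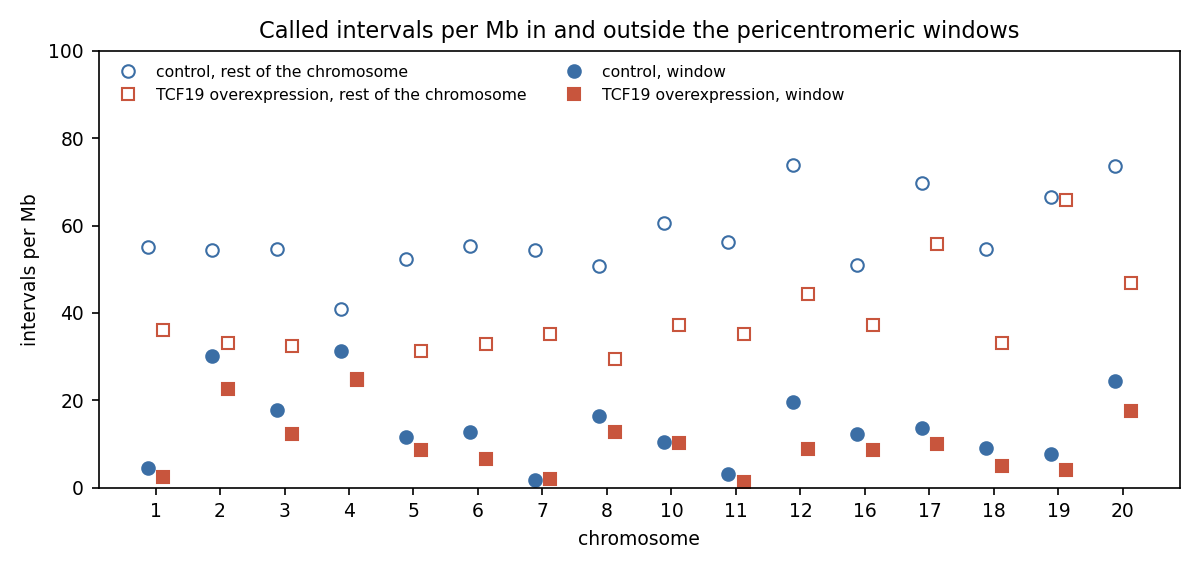
Intervals per Mb (vertical axis) for each chromosome with a window (horizontal axis), as filled points in the window and open points on the rest of the chromosome, with circles for control and squares for TCF19 overexpression. Every filled point lies below the open point of its library, and the control windows run from 1.75 to 31.4 per Mb.

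The overexpression list held fewer intervals than the control list on the chromosome arms, in the windows as a whole and at their gene-bearing margins, and about as many in the gene-free stretches. On the rest of the same chromosomes there were 0.637 (0.632–0.643) overexpression intervals for each control interval. The windows had 0.690 (0.625–0.761), and the windows outside the gene-free stretches 0.630 (0.564–0.704), close to the rest. The gene-free stretches had 162 overexpression and 163 control intervals, a ratio of 0.994 (0.795–1.24). Leaving out 1 window at a time moved this ratio between 0.928, without chromosome 8, and 1.08, without chromosome 12. The ratio depended on how the stretches were drawn: for the longest stretch free of protein-coding genes only, it was 0.757 (0.666–0.860).

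Single chromosomes went different ways within the near-equal total. In the gene-free stretches chromosome 8 had 11 control and 21 overexpression intervals and chromosome 6 had 5 and 9. Chromosome 12 had 27 control and 15 overexpression intervals and chromosome 1 had 16 and 9. Chromosome 17 was even, with 26 and 25, and so was chromosome 10, with 20 and 24. Counted by whole window, the ratio was above that of the rest of its own chromosome in 8 of 16 windows.

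Although few, the intervals of the gene-free stretches included the strongest of both lists by fold. Fold is the authors' enrichment of a summit over its local background. Of the 10 intervals of highest fold on chromosomes 1 to 22 and X, 7 in control and 8 in the overexpression library were in the gene-free stretches. Intervals with a fold of at least 10 made up 21 of 999 control members (2.1%) and 25 of 689 overexpression members (3.63%). Over all intervals, 0.0676% of the control and 0.119% of the overexpression list reached that fold. In the gene-free stretches they were 18 of 163 and 22 of 162 intervals, or 11.0% and 13.6%.

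The number of reads stacked at a summit, its pileup, was also high more often in the windows. At the very top members were fewer than by fold, and ranked by pileup they made up 3 of the top 10 in each library. A pileup of at least 40 reads was reached by 60 control (5.4%) and 74 overexpression (9.49%) summits of the windows, against 0.265% and 0.416% of all summits. Most members were not tall: the median pileup in the windows was 13 reads in control and 14 in overexpression, beside 12 and 13 on the rest. The gene-free stretches had medians of 16 and 17 reads. The strong summits were therefore a minority beside many low ones.

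The pair of intervals with the highest mean fold lay on chromosome 6, with its summits at 59163229 in control and 59163231 in overexpression. It held 87 reads (69.7–107) in control and 155 reads (132–181) in overexpression, with folds of 26.1 and 29.3. The control interval covered chr6:59163021-59163461, in which no RefSeq gene lies. The 10 kb around it, from which its background was taken, held 87 control and 157 overexpression reads, so nearly all reads of that neighbourhood lay under the summit.

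Chromosome 17 held 3 of the 5 leading pairs, all in its gene-free stretch. The summit at 23016389 had 71 control and 146 overexpression reads and folds of 22 and 27.6. The summit at 26594909 had 79 and 123 reads with folds of 23.3 and 25.2, and that at 25920227 had 57 and 89 reads with folds of 22.2 and 25.6. The overexpression library was the higher at each of these places. On chromosome 5 the summit at 49630952 had 69 control and 125 overexpression reads with folds of 23 and 26.2, and on chromosome 4 the summit at 50677062 had 55 and 103 reads with folds of 21.2 and 25.6. No RefSeq gene overlapped any of these intervals.

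Other tall summits had much the same height in both libraries. On chromosome 3 the summit at 93470586 had 432 control and 444 overexpression reads and folds of 22.5 and 21.5. The tallest members by reads were on chromosome 1 at 125180225, with 491 (449–536) control and 528 (484–575) overexpression reads. There the 10 kb around the summit held 1652 and 2351 reads, and the folds were 10.7 and 8.03. If the authors kept 1 read per position and strand, a pileup could not pass 2 times the fragment length, 546 in control and 552 in overexpression. Whether they did is not given in the sources used here, and the part of such a limit in the heights was not tested.

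**Figure D2:**
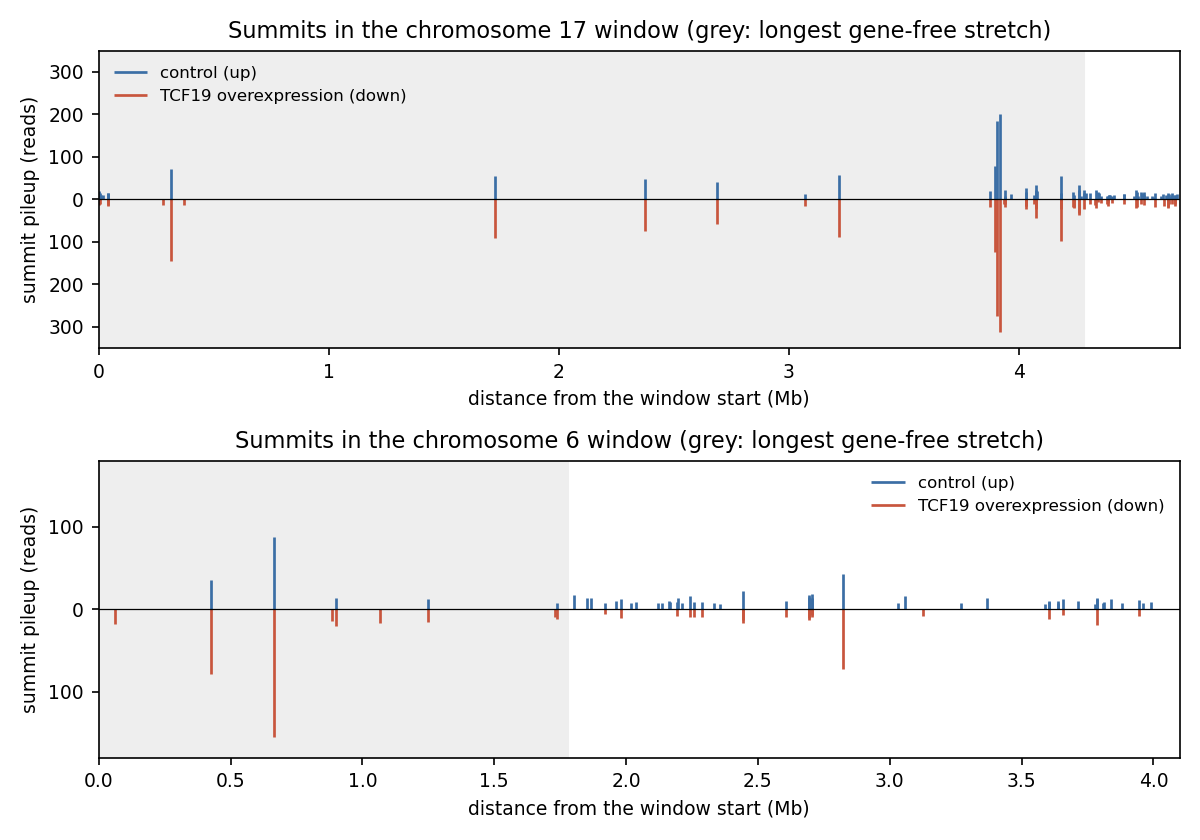
Pileup in reads of each summit (vertical axis, control upward and TCF19 overexpression downward) by distance in Mb from the start of the windows on chromosomes 17 and 6 (horizontal axis), with the gene-free stretch in grey. Some tall summits stand isolated at the same places in both libraries within long empty stretches, for example 87 control and 155 overexpression reads on chromosome 6. The tallest on chromosome 17, with 200 control and 313 overexpression reads, stands close to other summits. The gene-bearing margins hold many low summits.

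At some of the strongest gene-free summits nearly all reads of the surrounding 10 kb lay under the summit. Where the background was above the genome average, the pileup was at least 90% of the reads in 10 kb at 4 control and 9 overexpression summits of the gene-free stretches with a fold of at least 10, and at 0 such summits on the rest of the same chromosomes. Above the genome average this share and the fold are nearly the same measure, so it adds no support of its own. Over all such summits the median share was 14.3% in control and 14.7% in overexpression in the gene-free stretches, beside 12.8% and 14.1% on the rest. Other tall gene-free summits stood among many reads, as on chromosome 1, where 491 of 1652 control reads lay under the summit. The local background in the windows was a median of 1.19 times the genome average in control and 1.47 times in overexpression, beside 1.21 and 1.60 on the rest. In the gene-free stretches alone it was 1.38 and 1.74, and 25.7% and 32.1% of summits had more than 3 times the average, beside 9.59% and 15.8% on the rest.

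In the full lists, members were shared somewhat more often than intervals elsewhere. Of the 999 control members, 508 (50.9%, 47.8–53.9) were overlapped by an overexpression interval, beside 43% of all control intervals. Of the 689 overexpression members, 515 (74.7%, 71.4–77.8) were overlapped by a control interval, beside 67.4% of all overexpression intervals. The overexpression share was the larger in 16 of 16 windows, and the control list is the longer of the 2. Cutting the control list to the length of the other list brought the shares to 58.8% and 64.7%. The share over all intervals after this cut is not given here, so these values cannot be set against it.

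The gene-free stretches differed from the gene-bearing margins in this respect. There the shares were nearly equal, with 97 of 163 control intervals (59.5%, 51.8–66.7) and 99 of 162 overexpression intervals (61.1%, 53.4–68.3) overlapped. In the rest of the windows they were 411 of 836 (49.2%) and 416 of 527 (78.9%, 75.3–82.2). Intervals found in 1 list only numbered 66 of 163 in control and 63 of 162 in overexpression in the gene-free stretches. In the rest of the windows they were 425 of 836 and 111 of 527. Over all intervals, 91036 of 159748 in control and 33084 of 101370 in overexpression were in 1 list only. The bracket of the gene-free overexpression share overlapped holds the 67.4% of all overexpression intervals. Of the 63 overexpression-only intervals of the gene-free stretches, chromosome 8 contributed 13 and chromosome 10 contributed 12. Chromosome 12 contributed 18 of the 66 control-only intervals there.

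Strong members were nearly always shared, as were strong intervals elsewhere, and the unshared members were mostly weak or of middle strength. With a fold of at least 10, 21 of 21 control and 24 of 25 overexpression members were overlapped. On the rest of the same chromosomes it was 52 of 53 control and 57 of 58 overexpression intervals. At a fold of 4 to 5, 13 of 35 overexpression intervals of the gene-free stretches were overlapped (37.1%, 23.2–53.7), beside 74.9% on the rest of the same chromosomes. At a fold of 5 to 7 it was 24 of 38 (63.2%, 47.3–76.6) beside 87.2%, and at 7 to 10 it was 12 of 18 (66.7%, 43.7–83.7) beside 95.4%. From 4 to 10 fold, overexpression intervals in the gene-free stretches thus had a control partner less often than intervals of equal fold on the chromosome arms, by more than the counting error of these shares. Below these folds the order was the other way, with 20 of 30 (66.7%, 48.8–80.8) beside 58.8% at 3 to 4 fold and 9 of 19 (47.4%, 27.3–68.3) beside 37.7% under 3 fold, where the intervals of the shares hold the value of the rest. Control intervals of the gene-free stretches showed no common direction: 43.3% beside 45.4% at 4 to 5 fold, 78.9% (63.7–88.9) beside 60.6% at 5 to 7 fold and 75% beside 83.4% at 7 to 10 fold.

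**Figure D3:**
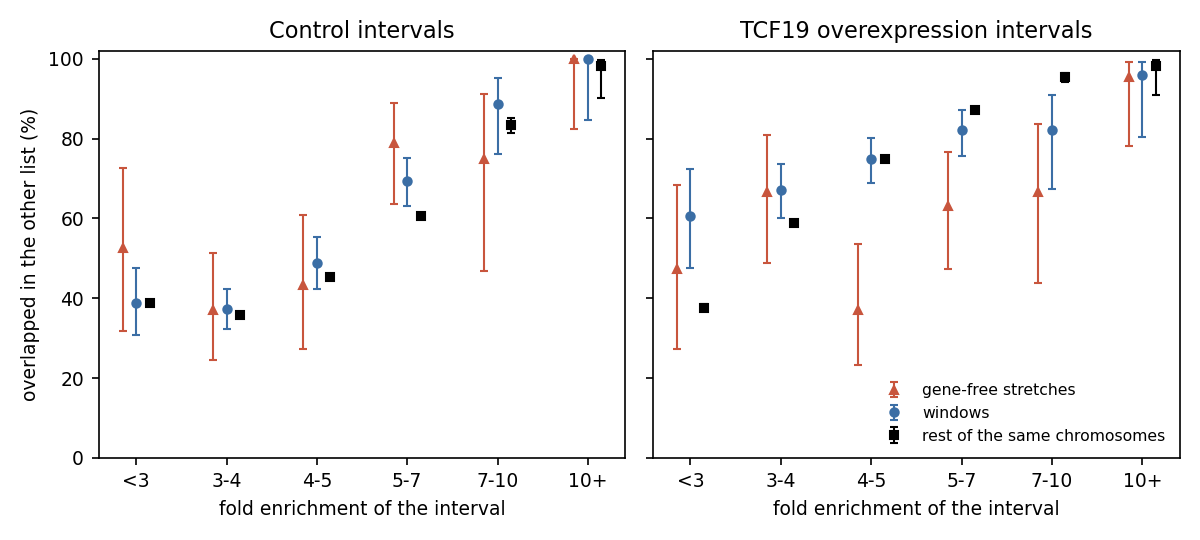
Share of intervals overlapped by an interval of the other library (vertical axis, %) by fold enrichment (horizontal axis), for control at left and TCF19 overexpression at right, with triangles for gene-free stretches, circles for the windows and squares for the rest of the same chromosomes. Bars are Wilson 95% intervals; at 4 to 5 fold the overexpression triangle lies at 37.1% and the square at 74.9%.

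The overexpression interval of highest fold without a control partner lay on chromosome 10 with its summit at 40596443, where 24 reads (15.4–35.7) gave a 10.3-fold enrichment. The next were on chromosome 2 at 93286402, with 23 reads and 9.88-fold, and on chromosome 4 at 51107391, with 20 reads and 8.65-fold. Then followed chromosome 10 at 41265478 with 19 reads and chromosome 6 at 58560835 with 18 reads. All 5 lay in gene-free stretches and with a background no higher than the genome average.

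Among control intervals without a partner, the one of highest fold was on chromosome 10 at 38768887, with 20 reads (12.2–30.9) and a 7.96-fold enrichment. Chromosome 12 at 33871052 and chromosome 3 at 93808135 each had 19 reads and 7.75-fold. On chromosome 20 the summits at 28564207 and 30218605 had 30 and 18 reads, with 7.74-fold and 7.36-fold. The other list gives no reads where it has no interval, so absence from a list does not show how far the libraries differed at these places.

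Where intervals of the libraries overlapped, their summits were closest together in the gene-free stretches. The summit distance in 527 overlapping pairs of the windows was a median of 81 bp (68–90). In the 101 pairs of the gene-free stretches it was 26 bp (17–46). In the other 426 pairs of the windows it was 89 bp (78–98), and in 55123 pairs on the rest of the same chromosomes it was 97 bp (96–98). Summits within 10 bp of each other made up 32.7% of gene-free pairs, 8.92% of the other window pairs and 6.50% of pairs on the rest.

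Stronger pairs had closer summits in every region, so the distance was also taken by fold. With a fold of at least 5 in both libraries, the median was 9 bp (6–17) in 45 gene-free pairs and 48 bp (34–85) in the other window pairs. It was 78 bp (75–81) in 6013 pairs on the rest of the same chromosomes. This limit did not match the regions for strength. A fold of at least 10 in both libraries was reached by 17 of the 45 gene-free pairs but 35 of the 6013 on the rest. With a fold of at least 10 in both, it was 6 bp (3–11) in 17 gene-free pairs and 13 bp (7–16) in 35 pairs on the rest, and these brackets overlap. On chromosome 4 the summits at 50677062 fell on the same base in both libraries.

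**Figure D4:**
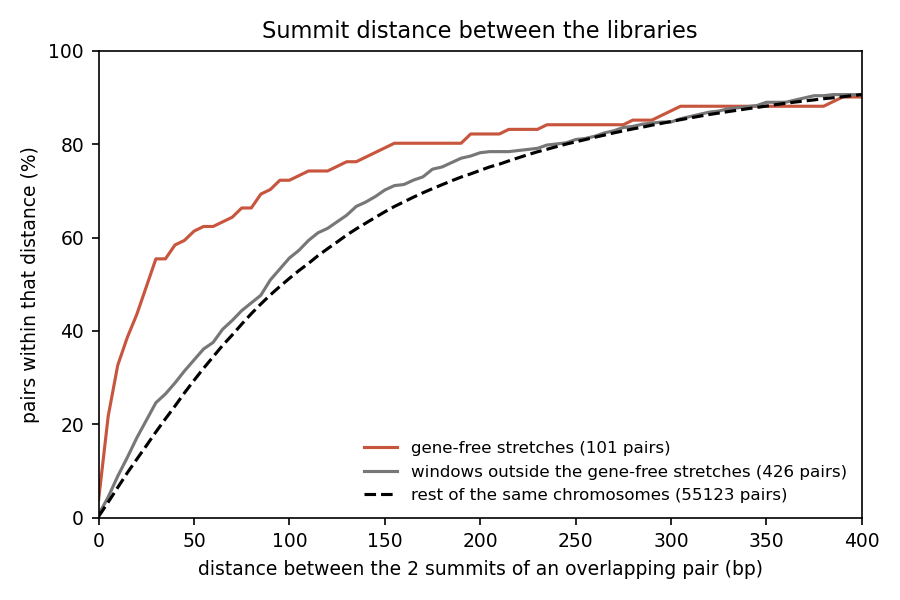
Percentage of overlapping interval pairs (vertical axis) whose summits lie within a given distance in bp (horizontal axis), for gene-free stretches, the rest of the windows and the rest of the same chromosomes. The gene-free line rises first, with 32.7% of its 101 pairs within 10 bp, while the other lines stand at 8.92% and 6.50% at that distance.

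Within their own interval the summits were central. The median distance from the interval's centre was 37.0 bp in control and 35.0 bp in overexpression members, beside 30 and 34.5 bp on the rest. In the gene-free stretches it was 35.5 bp in control and 16.75 bp in overexpression. Members were slightly wider than intervals elsewhere, with medians of 439 and 454 bp beside 390 and 420 bp.

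By reads scaled to the genome average, the tall summits that both libraries shared were mostly higher with TCF19 overexpression. To compare heights, each pileup was divided by its library's genome average, 57.96 reads per 10 kb in control and 51.76 in overexpression, at summit pairs within 100 bp of each other. In the windows, 92 of 359 pairs (25.6%) were at least 1.5 times higher in overexpression, beside 14.9% of all pairs. At least 1.5 times lower were 23 (6.41%), beside 7.04% of all pairs. The median ratio in the windows was 1.15, a log2 difference of 0.21 (0.15–0.30). Over all 41018 pairs the median ratio was 1.11, so a ratio of 1 is not the middle of this scale and 1.15 lies close to it.

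In the gene-free stretches 49 of 89 pairs (55.1%) were at least 1.5 times higher, and the median ratio was 1.58, a log2 difference of 0.66 (0.46–0.76). In the rest of the windows 43 of 270 pairs (15.9%) were that much higher and the median log2 difference was 0.15, but the gene-free pairs were taller. Among pairs with a mean pileup of at least 40 reads, the gene-free median ratio was 1.73, with 32 of 32 pairs higher in overexpression and 26 of 32 at least 1.5 times higher. Tall pairs in the rest of the windows were raised as well, with a median ratio of 1.46, 29 of 31 higher and 15 of 31 (48.4%) at least 1.5 times higher. Of those 15 pairs, 14 lay in 1 block of 62.3 kb on chromosome 4, described below. For the same height outside the windows, 308 pairs on all chromosomes had a median ratio of 1.16, with 219 (71.1%) higher and 59 (19.2%) at least 1.5 times higher. A limit on the mean can admit a pair through its overexpression value alone. With at least 40 reads in control, the gene-free median ratio was still 1.73, with 22 of 28 pairs (78.6%) at least 1.5 times higher, beside 42 of 316 (13.3%) outside the windows. Among pairs with a fold of at least 10 in both libraries, 16 of 17 gene-free pairs and 8 of 55 pairs outside the windows were at least 1.5 times higher.

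**Figure D5:**
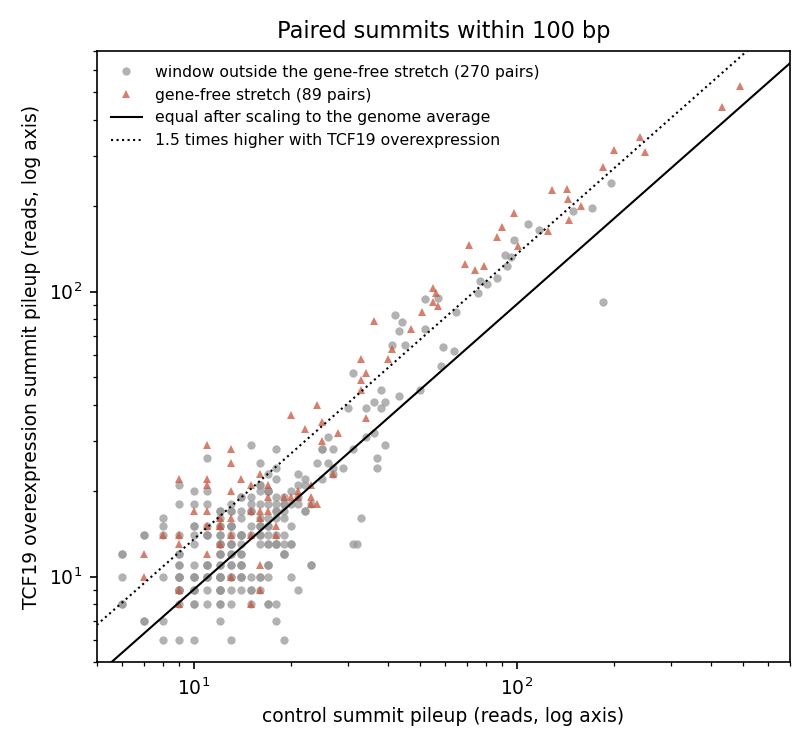
Summit pileup in reads of each pair within 100 bp in the windows, control on the horizontal and TCF19 overexpression on the vertical axis (both log), with triangles for gene-free stretches and circles for the rest of the windows. The solid line marks equal heights after scaling to the genome averages and the dotted line a 1.5 times higher overexpression value; 49 of 89 triangles and 43 of 270 circles lie on or above the dotted line.

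The leading pairs varied around this median. The scaled ratio was 1.97 (1.51–2.60) at 59163229 on chromosome 6, 2.28 (1.70–3.07) at 23016389 on chromosome 17 and 2.01 (1.48–2.73) at 49630952 on chromosome 5, with exact intervals of the counting error. It was 1.14 (0.995–1.3) at 93470586 on chromosome 3 and 1.19 (1.05–1.35) at 125180225 on chromosome 1, the 2 places with over 400 reads in each library. Of the 20 pairs of highest mean fold, the interval of the ratio lay above 1 in 18, and above 1.11, the median of all pairs, in 16.

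The rise was seen on several chromosomes. Among gene-free pairs with a mean of at least 40 reads, the median ratio was 1.91 in 6 pairs on chromosome 4 (lowest 1.69, highest 2.14) and 1.61 in 10 pairs on chromosome 5 (1.37 to 2.07). It was 1.73 in 9 pairs on chromosome 17 (1.61 to 2.28), and without chromosome 17 the median over the other 23 pairs was a log2 difference of 0.77. Chromosome 6 had 2 such pairs, at 1.97 and 2.43, the latter with 36 control and 79 overexpression reads at 58924984. The limit on the mean admitted this last pair through its overexpression value. It did the same for pairs with 34, 33 and 33 control reads on chromosomes 4, 5 and 10, among them the lowest ratio on chromosome 4. With at least 40 control reads, the lowest on chromosome 4 was 1.70. Without chromosome 17 the median over 19 pairs with that many control reads was a log2 difference of 0.77. Neighbouring summits can share reads and copies of a repeat, so these pairs are not independent.

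Tall pairs outside the gene-free stretches were nearly all on chromosomes 4 and 20, and they differed from each other. On chromosome 4, 19 pairs lay within 62.3 kb, from 49092151 to 49154485, with 31 to 196 reads in control and 52 to 240 in overexpression. Their scaled ratios ran from 1.36 to 2.19, with a median of 1.60, and 14 of the 19 were at least 1.5 times higher. On chromosome 20, 7 pairs had ratios of 0.997 to 1.45, with a median of 1.11. One pair on chromosome 4, at 49513745 and named because it went the other way, had 185 control and 92 overexpression reads, a ratio of 0.551.

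The local background counts the summit's own reads, so it moves with the height at summits that hold most reads of their 10 kb. In gene-free pairs with a mean pileup of at least 40 reads the background in 10 kb differed by a median log2 of 0.72, beside 0.14 at pairs of the same height outside the windows. The median fold of these gene-free pairs was about equal, 12.2 in control and 12.1 in overexpression, and 20 of 32 had the higher fold in overexpression. In gene-free pairs with a fold of at least 10 in both libraries it was 19.7 and 24.3, with 13 of 17 higher in overexpression. In the chromosome 4 block the background ran from 366 to 957 reads per 10 kb in control and from 541 to 1436 in overexpression. The part of the background, of DNA copy number and of reads with several possible positions in the higher pileups was not tested.

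Genes lie at the margins of the windows, and most carried intervals in both libraries. RefSeq places 57 protein-coding genes wholly inside a window. A member lay in the gene or within 1000 bp of it for 40 genes in control (70.2%) and 41 in overexpression (71.9%), beside 79.9% and 82.6% of all protein-coding genes. These were 40 genes in both libraries and ZNF37A, a zinc finger gene, in overexpression alone, with 11 reads and 4.05-fold. The 13 olfactory receptor genes of the chromosome 11 window, which encode odorant receptors, had none in either library.

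By symbol, 21 of the 57 genes were set apart as members of families in which reads can be split between copies (olfactory receptors, zinc finger genes, POTEA and ANKRD36C). The grouping is rough, and it leaves the pair TRIM43 and TRIM43B outside. Of its 8 genes other than olfactory receptors, 7 carried members in control and 8 in overexpression. Of the other 36 genes, 33 (91.7%) carried members in both libraries. The exceptions were TEKT4, which encodes a cilium protein, LOC105375816 and TRIM48. Among the genes set apart, ANKRD36C had the highest fold, with 31 reads (21.1–44.0) and 8.34-fold in control at 95939603. The overexpression summit 4 bp away held 13 reads and 4.40-fold.

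Long genes carried many intervals, more of them in the longer control list. EPHA3 had 15 control and 9 overexpression intervals. KHDRBS2, which encodes an RNA-binding protein, had 12 and 4. Its summits of highest fold held 16 and 19 reads, at different places. PROS1, which encodes the anticoagulant protein S, had 9 and 5 intervals, and its strongest summits were at different places. At 93906710 it had 14 control and 14 overexpression reads, with folds of 5.69 and 4.80, and at 93917653 it had 11 and 26 reads, with folds of 4.16 and 8.42. SYT10, a synaptotagmin gene, had 5 and 2 intervals, and at 33439295 it had 26 control and 31 overexpression reads, with folds of 5.66 and 6.26. ISL1, a homeobox gene, had 2 and 2, and WSB1, a SOCS box gene, had 1 and 1.

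Promoters of the windows were overlapped about as often as promoters in general. RefSeq gives 107 promoters of 91 genes in the windows, out of 34961, each from 250 bases before to 50 bases after a start. Control intervals overlapped 38 of them (35.5%, 27.1–44.9), beside 28.5% of all promoters. Overexpression intervals overlapped 51 (47.7%, 38.4–57.0), beside 39.3%. Both libraries covered 35, control alone 3 and overexpression alone 16 of the 107. Over all 34961 promoters, both covered 8413, control alone 1546 and overexpression alone 5323. The overexpression list thus covered more promoters than the control list, in the windows as over all promoters, although it held fewer intervals.

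Satellite motifs were scarce in these promoters. The CENP-B box, searched as its consensus with free positions on either strand, occurred in 1 of 107 promoters (0.935%) and in 24 of all 34961 (0.0686%). The match was that of LOC105371204 on chromosome 16, printed above, at bases 230 to 244. At least 5 copies of CATTC, or of GAATG for the other strand, occurred in 0 of 107 and in 11 of all promoters (0.0315%). These counts describe the promoter sequences only and say nothing of the gene-free stretches, whose sequence was not analysed here.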

How the data were processed

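ChIP-seq peak lists of 2 libraries, 1 per group by the genotype label, were used. Per the submitters' processing notes, the aligner was BWA 0.7.12, the build hg38 and the peak caller MACS2 2.1.0, run per library. The sources used here do not give parameters, duplicate handling or any use of an input. The deposited values per summit were a score, a fold (ratio of pileup to local background), −log10 p-values, −log10 q-values from 1.3 up, and the summit position within the interval. Fold is the authors' value and was used within each list, except at pairs, where the folds of both lists were set side by side.

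Whole-read pileups were recovered from the deposited fold and −log10 p, taking fold as (pileup + 1) / (background + 1) with a Poisson tail, with a misfit of at most 0.001. This worked at 100% of summits of both libraries. The background was the larger of the genome average and the library's own reads in 10 kb, so folds carry no correction by an input. Read totals are unknown, and the genome averages (57.96 and 51.76 reads per 10 kb) stood for depth.

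An interval with several summits was counted once, described by its summit of highest fold, and belonged to a window if any of its summits did. Comparisons with the rest were kept to chromosomes 1 to 22 and X; 792 control and 643 overexpression summits lay on other contigs. Overlap needed 1 bp. The windows, in Mb, were 121.6 to 125.2 on chromosome 1, 91.8 to 96 on 2, 87.8 to 94 on 3, 48.2 to 51.8 on 4, 46.1 to 51.4 on 5, 58.5 to 62.6 on 6, 58.1 to 62.1 on 7 and 43.2 to 47.2 on 8. They were 38 to 41.6 on 10, 51 to 55.8 on 11, 33.2 to 37.8 on 12, 35.3 to 38.4 on 16, 22.7 to 27.4 on 17, 15.4 to 21.5 on 18, 24.2 to 28.1 on 19 and 25.7 to 30.4 on 20. Genes and promoters came from RefSeq tables of GRCh38.p14, matched by position. Named were the intervals and pairs of highest fold, the strongest intervals without a partner, and genes wholly in a window. The members and lists were chosen with earlier results of these data known. A planned result on sequence at summits was not computed. The recovery was tested on simulated data. Python 3.11.15, pandas 2.3.3, numpy 2.4.6 and scipy 1.17.1 were used.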

Additional observations from a re-analysis of the deposited data

How the results depend on the processing

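With 1 library per group, direction and size rest on those libraries, and nothing here measures their biological spread. No paired analysis was possible because each group had 1 sample and no test was made. Of 52 recomputed values over 9 results, 34 moved by less than the counting error and 18 by more. Some of the 34 could not move, such as the overexpression summit share when only the control list was cut. Others repeated each other, such as at least 40 reads in control and in both libraries, so the count is no measure of robustness. The gene-free interval ratio lay on both sides of 1, from 0.757 to 1.18, and has no firm direction. No other single result changed direction, but the order of the summit shares of the 2 libraries did. These shares were 0.655% in control and 0.699% in overexpression as reported, and 0.743% and 0.699% with the control list cut. Their brackets overlapped in both cases. With each window shortened by 0.5 Mb at both ends, the summit shares were 0.339% and 0.389%, the control share overlapped 55.1% and the median log2 pileup ratio 0.34. Without the window on chromosome 2 the summit shares were 0.572% and 0.607%, and without chromosome 17, chosen after seeing the data, 0.610% and 0.649%. With the control list cut to the length of the overexpression list, the control summit share was 0.743% and the overlapped shares 58.8% and 64.7%. The interval ratio of the windows was then 0.929 (0.836–1.03). With an overlap of at least 50% of both intervals, the shares were 41.9% and 60.8% and the summit distance 62 bp. By covered bases the control share was 0.719%, and with pairs within 50 bp the log2 ratio was 0.34. For stretches free of protein-coding genes only, chosen after seeing the data, the interval ratio was 0.757. Depth limits the low summits most, since a summit of 13 reads has a counting interval of 6.92 to 22.2 reads.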
